A study of Mus musculus with 2 samples.

Results

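The projection neurons of the striatum carry a small set of genes at high levels, and 9 of them were followed here in libraries labelled as cerebral cortex: Ppp1r1b, Drd1, Drd2, Adora2a, Rgs9, Penk, Pdyn, Tac1 and Gpr6. They are 9 of the 55536 annotated mouse genes in the deposited gene tables. The genes were listed by name, with their levels in these libraries already known, so they count as chosen by their measured levels, which are given as a description without a test. Total RNA was taken from the left cerebral cortex of adult male mice of 8 to 10 months, bred from the 5xFAD and CAST strains and obtained from The Jackson Laboratory. The 2 libraries belong to 1 group: replicate 2 and replicate 1 share strain, sex and age range, and the labels name no treatment. The labels number them as biological replicates with separate tissue samples but give both the same donor entry. They are taken here as 2 animals, which the labels do not state outright, so the spread between them may be technical. 5xFAD mice carry transgenes driven by the neuronal Thy1 promoter. Whether each animal of this cross carried them was not checked here, and no group labelled as lacking them was analysed. The comparisons are therefore between the genes, within each animal, and between replicate 2 and replicate 1.

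The striatum sends its output through paired populations of GABAergic spiny projection neurons. Direct pathway neurons project to the output nuclei of the basal ganglia, express the D1 dopamine receptor (Drd1) and make substance P (from Tac1) and dynorphin (from Pdyn). Indirect pathway neurons reach those nuclei by way of the external globus pallidus, and express the D2 dopamine receptor (Drd2), the adenosine A2a receptor (Adora2a), the orphan receptor Gpr6 and enkephalin (from Penk). Both populations hold DARPP-32 (Ppp1r1b), a protein phosphatase 1 inhibitor switched on by protein kinase A, and RGS9 (Rgs9), which speeds the shutdown of G protein signals. The cerebral cortex also makes several of these RNAs in its own cells, among them Penk, Pdyn and Tac1 in subsets of neurons and Ppp1r1b and Drd1 in deep-layer neurons.

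The precursor genes differ in what they encode, and the coding stretches below show how. They were read from the GENCODE M21 transcript sequences, with mm10 positions from the exons of that annotation, and are those of the reference strain. They are given on the coding strand with 6 bases on each side of the peptide. In Penk (minus strand of chromosome 4) 7 stretches encode an enkephalin core, shown in capitals; 6 of them end in the codon for methionine and 1, the sixth, in that for leucine. The first lies at chr4:4134328-4134354 and the last at chr4:4133842-4133868.
Penk 1: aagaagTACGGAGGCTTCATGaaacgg
Penk 2: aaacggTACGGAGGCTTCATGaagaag
Penk 3: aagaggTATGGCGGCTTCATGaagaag
Penk 4: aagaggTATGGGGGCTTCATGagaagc
Penk 5: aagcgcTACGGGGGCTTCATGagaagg
Penk 6: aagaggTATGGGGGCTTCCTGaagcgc
Penk 7: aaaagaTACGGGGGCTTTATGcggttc

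In Pdyn (minus strand of chromosome 2) 3 stretches encode the same core, each with a leucine codon at its end. They open neoendorphin, dynorphin A and dynorphin B and lie between chr2:129688067-129688093 and chr2:129688232-129688258. In both precursors, codons for a pair of basic residues, where convertases cut, precede each core.
Pdyn 1: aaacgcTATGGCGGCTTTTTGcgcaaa
Pdyn 2: aaacgcTATGGGGGCTTCCTGcggcgc
Pdyn 3: aagcgcTATGGTGGTTTCCTGcggcgt

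Tac1 encodes tachykinins instead. Substance P is encoded at chr6:7556726-7556770 (plus strand, capitals), on an exon that the 3 main transcripts share. A 45-base exon at chr6:7557216-7557260 is skipped in a transcript of 691 bases, and a 54-base exon at chr6:7559099-7559152, which holds the codons of neurokinin A (capitals), is skipped in one of 980 bases.
Tac1 substance P: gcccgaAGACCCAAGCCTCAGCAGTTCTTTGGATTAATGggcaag
Tac1 exon of 45 bases: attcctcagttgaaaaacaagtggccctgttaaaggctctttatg
Tac1 exon of 54 bases: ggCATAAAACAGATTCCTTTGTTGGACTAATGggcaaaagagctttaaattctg

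Levels are given as TPM, a share of all transcripts in which reads are divided by transcript length, so genes can be set beside each other. Each of the 9 reached 1 TPM in replicate 2 and in replicate 1, as did 14843 genes in all, and their rounded expected counts ran between 354 and 7857 reads in a library. The libraries held 32543032 expected reads in replicate 2 and 34101499 in replicate 1, so that 3 reads, used here as the floor, stood for 0.0922 CPM in replicate 2 and 0.0880 CPM in replicate 1. Every member lay far above that floor. The median gene among the 19484 with at least 10 reads in a library had a TPM higher in replicate 2 by 0.12 on the log2 scale, and TPM differences between the animals are to be read against that shift. In bulk tissue, fewer cells of a type and less RNA per cell cannot be told apart.

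The signalling proteins found in both pathways were the first and the third most abundant members. Ppp1r1b (DARPP-32) stood at 229 TPM in replicate 2 and 199 TPM in replicate 1, averaging 214 ± 20.9 TPM (SD, n = 2), and had 7857 and 7818 reads in them. It lay above 98.8% of the 22015 nuclear protein-coding genes. The gene spans chr11:98348404-98357796 on the plus strand (mm10, ENSMUSG00000061718.12). Rgs9 stood at 54.3 TPM in replicate 2 and 44.7 TPM in replicate 1 (mean 49.5 ± 6.83), above 90.7% of coding genes. It spans chr11:109225355-109298129 on the minus strand of the same chromosome (ENSMUSG00000020599.13).

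Among the peptide precursors, Penk was the most abundant by a wide margin, at 175 TPM in replicate 2 and 149 TPM in replicate 1 (mean 162 ± 18.6; chr4:4133531-4138819, minus strand, ENSMUSG00000045573.9), above 98.1% of coding genes. Tac1 stood at 40.6 TPM in replicate 2 and 36.0 TPM in replicate 1 (mean 38.3 ± 3.25; chr6:7554879-7565834, plus strand, ENSMUSG00000061762.12). Pdyn stood at 22.7 TPM in replicate 2 and 20.9 TPM in replicate 1 (mean 21.8 ± 1.33; chr2:129686565-129699844, minus strand, ENSMUSG00000027400.11). The 3 precursors kept the order Penk, Tac1, Pdyn in both animals, and their ranges did not overlap.

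The 4 receptor genes lay between 36.1 and 9.19 TPM. Drd1 stood at 36.1 TPM in replicate 2 and 27.9 TPM in replicate 1 (mean 32.0 ± 5.83; chr13:54051183-54055705, minus strand, ENSMUSG00000021478.6). Adora2a, whose protein opposes the D2 receptor in the same cells, stood at 30.9 and 27.2 TPM in replicates 2 and 1 (mean 29.0 ± 2.62; chr10:75316877-75334784, plus strand, ENSMUSG00000020178.6). Drd2 stood at 18.3 TPM in replicate 2 and 16.15 TPM in replicate 1 (mean 17.2 ± 1.53; chr9:49340627-49408177, plus strand, ENSMUSG00000032259.8). Gpr6, a receptor with high activity in the absence of a ligand, was the least abundant member, with 9.42 TPM in replicate 2 and 9.19 TPM in replicate 1 (mean 9.305 ± 0.163; chr10:41069977-41072285, minus strand, ENSMUSG00000046922.7). It still lay above 61.7% of coding genes.

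The order of the 9 levels was identical in the 2 animals: Ppp1r1b, Penk, Rgs9, Tac1, Drd1, Adora2a, Pdyn, Drd2 and Gpr6. Of the 8 pairs of neighbours in that order, 6 had ranges over the animals that did not overlap. The ranges of Tac1 and Drd1 overlapped, and so did those of Drd1 and Adora2a, so the ranges do not separate either pair. Within each animal Tac1 lay above Drd1, by a log2 ratio of 0.17 in replicate 2 and 0.37 in replicate 1. Drd1 lay above Adora2a by 0.22 in replicate 2 and 0.035 in replicate 1. The place of Drd1 against Adora2a also rested on how its level was computed. With reads per kilobase of the longest coding transcript the mean log2 ratio of Drd1 over Adora2a was -0.24, from the same reads with another length. In the deposited kallisto-format table, where both reads and lengths differ, it was -0.37. For Tac1 over Drd1 the log2 ratio of the means was 0.45 with reads per kilobase and 0.78 in the kallisto-format table.

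**Figure D1:**
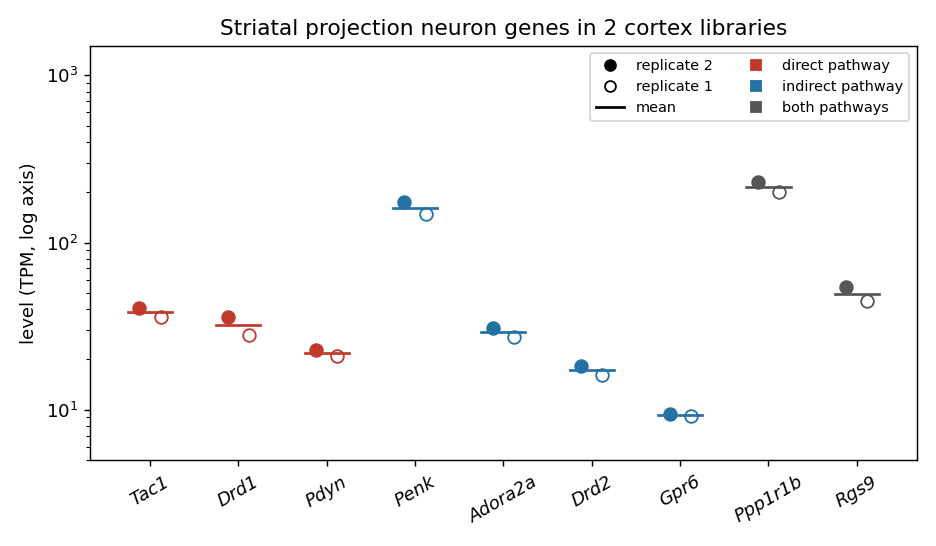
Level of each member in TPM (log axis), with a filled point for replicate 2, an open point for replicate 1 and a line at their mean; direct pathway, indirect pathway and shared members are grouped and coloured. The points of the 2 animals lie close together for each gene, and the levels run between 229 TPM for Ppp1r1b and 9.19 TPM for Gpr6.

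Direct pathway members were set against indirect pathway members within each animal, by groups and by kinds of protein. The median of Drd1, Pdyn and Tac1 lay above that of Drd2, Adora2a, Penk and Gpr6 by 0.60 in replicate 2 and 0.41 in replicate 1 on the log2(TPM + 0.1) scale, averaging 0.50 ± 0.13 (SD, n = 2). The summed level went the other way: the direct members summed to 99.4 TPM in replicate 2 and 84.7 TPM in replicate 1, against 233.8 and 201.4 TPM for the indirect members, of which Penk alone made up 175 and 149 TPM. The median gap was 0.0018 with reads per kilobase of the longest coding transcript, which changes the length alone. It was 0.059 in the kallisto-format table, which changes both the assignment of reads and the lengths. In each animal and under each of these measures the direct median was the level of Drd1, and the indirect median lay between Adora2a and Drd2. The medians and the sums thus gave no single order of the pathways.

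The direct-to-indirect ratio of the dopamine receptors kept its direction, but not its size, under the 3 measures of level. Drd1 exceeded Drd2 by 1.97-fold in replicate 2 and 1.73-fold in replicate 1 in TPM, a log2 ratio of 0.88 ± 0.14 (SD, n = 2). The kallisto-format table put the log2 ratio at 0.59 in replicate 2 and 0.39 in replicate 1. With reads per kilobase of the longest coding transcript it was 1.19-fold in each animal. The expected counts behind these ratios were 1682 (replicate 2) and 1664 (replicate 1) for Drd1, against 999 (replicate 2) and 987 (replicate 1) for Drd2.

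Among the peptides, the direct pathway precursors lay below the indirect one under each of these measures. Tac1 over Penk had a log2 TPM ratio of -2.11 in replicate 2 and -2.05 in replicate 1 (mean -2.08 ± 0.04), and Pdyn over Penk -2.95 in replicate 2 and -2.83 in replicate 1 (mean -2.89 ± 0.08). Within the direct pathway, Tac1 exceeded Pdyn by 1.78-fold in replicate 2 and 1.73-fold in replicate 1. Within the indirect pathway, Adora2a exceeded Drd2 by 1.69-fold in replicate 2 and 1.68-fold in replicate 1. Drd2 exceeded Gpr6 by 1.94-fold in replicate 2 and 1.76-fold in replicate 1. All these ratios were larger than their differences between the animals.

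**Figure D2:**
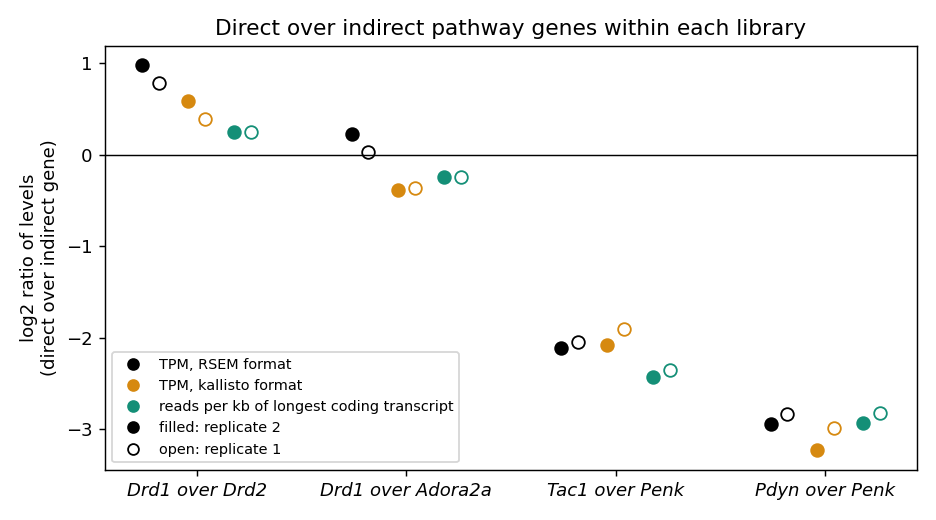
Log2 ratios of level between direct and indirect pathway members within each animal (filled points replicate 2, open points replicate 1), for the deposited TPM, the TPM of the kallisto-format table and reads per kilobase of the longest coding transcript. Drd1 over Drd2 lies above 0 and Tac1 and Pdyn over Penk lie below 0 under all 3 measures, while Drd1 over Adora2a changes side.

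Replicate 2 was then set over replicate 1 for each gene, using expected counts scaled by TMM effective library sizes. There is 1 library a side, so no p-value is given. A gene was called different where an interval on how its reads divided between the libraries, built with an error rate of 1 in 1000, left out equal levels. Such intervals cover counting error only. By this rule 2 of 9 members, Penk and Rgs9, were higher in replicate 2 and 0 were lower, against 4.35% of all 19484 genes tested called higher and 4.44% called lower. None was called with a difference of at least 2-fold, as 1.22% of all genes were. The ratio lay above 0 for 7 of 9 members, against 49.9% of all genes. The split of all calls rested on the scale: 848 genes were called higher and 865 lower with TMM, 1297 higher and 578 lower with total reads, and 2327 higher and 344 lower with spike-in reads.

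The differences were small. Rgs9, with 2734 reads in replicate 2 and 2481 in replicate 1, had a log2 ratio of 0.18 (95% counting interval 0.10 to 0.25). Penk, with 4764 and 4538 reads in replicates 2 and 1, had one of 0.11 (0.05 to 0.16). They were among the 3 most deeply counted members, and their intervals were among the narrowest. The remaining ratios ran between -0.09 for Gpr6 (354 reads in replicate 2, 387 in replicate 1; interval -0.31 to 0.12) and 0.05 for Drd2 (999 and 987 reads; -0.07 to 0.18), and the 95% intervals of these 7 members included 0. The median size of the ratio, without its sign, was 0.051 over the members and 0.126 over all genes tested.

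Drd1 gave the clearest gap between the scales. Its TPM differed between the animals by a log2 ratio of 0.37, yet its scaled reads differed by 0.05 (interval -0.05 to 0.15). The effective length assigned to the gene was 2089 bases in replicate 2 and 2392 bases in replicate 1, a log2 ratio of -0.19, and the general TPM shift was 0.12. Its reads were divided among its transcripts in different proportions in the 2 libraries.

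**Figure D3:**
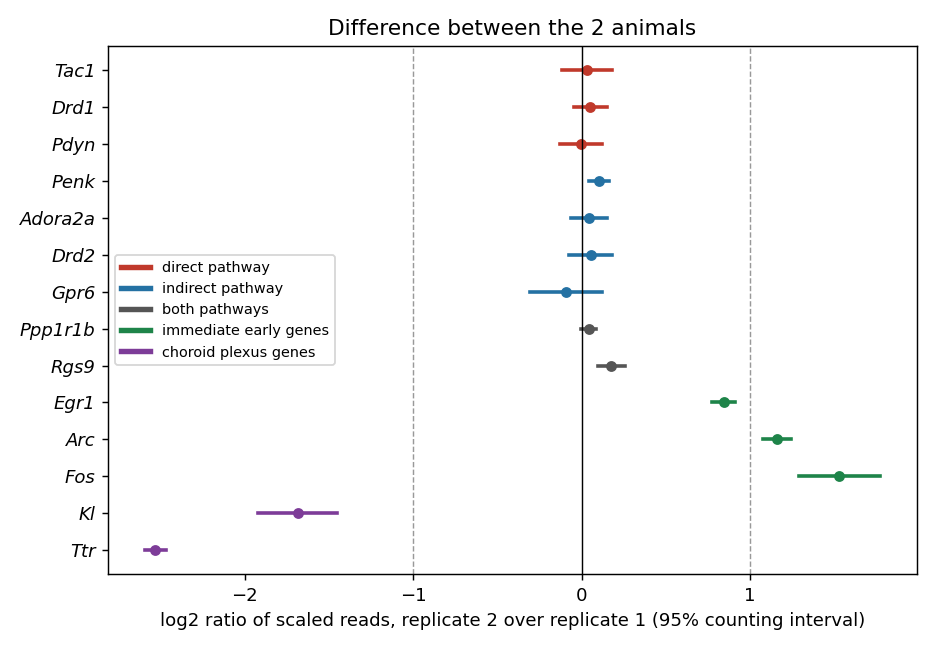
Log2 ratio of replicate 2 over replicate 1 for the 9 members, with 95% counting intervals, beside 3 immediate early genes (Egr1, Arc, Fos) and 2 choroid plexus genes (Kl, Ttr) as a scale. The members lie between -0.09 and 0.18, while Fos lies at 1.53, Kl at -1.68 and Ttr at -2.53.

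Other gene lists differed between the animals by more than the members did. Immediate early genes, transcribed within minutes of neuronal activity, summed to 241 TPM in replicate 2 and 116 TPM in replicate 1. Of the 9 listed, 8 were called higher and 0 lower, with a median log2 ratio of 0.84; Fos had 14.7 TPM in replicate 2 and 5.30 in replicate 1 (ratio 1.53), and Arc 53.9 and 22.1 TPM (ratio 1.16). Choroid plexus markers summed to 107 TPM in replicate 2 and 553 TPM in replicate 1, with 5 of 5 called lower (median -1.86), Folr1 the most at 0.63 and 4.2 TPM. Ttr made up most of that sum, at 101 TPM in replicate 2 and 534.5 TPM in replicate 1 (ratio -2.53). Markers of thalamus and hypothalamus summed to 32.0 TPM in replicate 2 and 57.2 TPM in replicate 1, with 6 of 8 called lower (median -1.16; 5 with kallisto-format counts). Avp stood at 10.4 TPM in replicate 2 and 18.3 TPM in replicate 1, and Prkcd at 6.99 and 15.3 TPM. Hcrt, a peptide gene of the lateral hypothalamus, was at 0 reads in replicate 2 and 12 in replicate 1. The part of these differences in the ratios of Penk and Rgs9 was not tested.

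Transcript shares come from the deposited percentages of each gene's TPM, with those of the kallisto-format table beside them. Rgs9 has retinal and striatal forms that differ at the 3′ end: the retinal form reads on past a splice site into a short end, while the striatal form splices there to further exons with a long C-terminal coding part. The annotation holds both, as transcripts of 2313 bases (retinal type) and 2434 bases (striatal type) that share their first 1398 coding bases. After that the retinal type has 57 coding bases and the striatal type has 630, stop codons included. The 57 bases of the retinal type (chr11:109235843-109235899, minus strand) end in its stop codon. They are shown with the 57 bases that follow the splice in the striatal type (chr11:109227548-109227604, minus strand).
Rgs9 retinal type: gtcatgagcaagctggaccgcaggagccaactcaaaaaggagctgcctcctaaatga
Rgs9 striatal type: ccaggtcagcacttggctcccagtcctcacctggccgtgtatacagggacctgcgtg

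Transcripts with the spliced 3′ exons (the 2434-base one and a partial one of 1743 bases) made up 69.8% of Rgs9 TPM in replicate 2 and 77.8% in replicate 1, averaging 73.8% ± 5.64 (SD, n = 2). The kallisto-format table gave 67.4% in replicate 2 and 74.7% in replicate 1. The entry of the retinal type held 15.5% in replicate 2 and 11.99% in replicate 1. Its end lies past the splice site, in bases that the striatal type removes, and the libraries were made from total RNA. Retinal-type RNA and unspliced RNA of the striatal type cannot be told apart there. A transcript of 3464 bases with 699 of them coding held 11.5% in replicate 2 and 7.33% in replicate 1. Reads show to which entries the higher count of replicate 2 was assigned. The 3464-base transcript was assigned 469 reads in replicate 2 and 275 in replicate 1, and the retinal type 417 and 296, whereas the striatal type was assigned 1485 reads in replicate 2 and 1580 in replicate 1.

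The 3 main Tac1 transcripts correspond to the alpha, beta and gamma preprotachykinins. The gamma form (691 bases, without the 45-base exon) held 43.6% of Tac1 TPM in replicate 2 and 48.2% in replicate 1. The beta form (1230 bases, with both exons) held 28.0% in replicate 2 and 34.97% in replicate 1, and the alpha form (980 bases, without the neurokinin A exon) held 27.6% and 16.4%. The neurokinin A exon was thus in 71.6% of Tac1 TPM in replicate 2 and 83.2% in replicate 1. The kallisto-format table assigned almost nothing to the alpha form and put that exon in 97.5% and 98.6% of Tac1 TPM in replicates 2 and 1, and gave the beta form 54.3% in replicate 2 and 54.9% in replicate 1. The shares of the alpha and beta forms, and which form leads, are thus not settled by these files. Both tables gave the gamma form a share between 43.2% and 48.2% in each animal.

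Drd1 RNA was apportioned over 3 entries on which the tables differed most. Those of 3526 and 3576 bases both encode the receptor. The RSEM-format table gave the 3526-base entry 53.9% of Drd1 TPM in replicate 2 and 54.4% in replicate 1, and the 3576-base entry 3.22% and 12.3%. The kallisto-format table gave the 3526-base entry almost none and the 3576-base entry 78.1% in replicate 2 and 88.3% in replicate 1. A noncoding entry of 405 bases held 42.9% of the TPM in replicate 2 and 33.3% in replicate 1 of the RSEM-format table, but 6.26% and 4.25% of the reads. A short entry gains weight when reads are divided by length, and the Drd1 TPM was higher in the library where this entry had more reads, 105 in replicate 2 and 70.7 in replicate 1.

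For Ppp1r1b, the full coding transcript (2001 bases, 585 of them coding with the stop codon) held 59.7% of the TPM in replicate 2 and 60.9% in replicate 1, and 73.8% of the reads in each. Noncoding entries, of which a retained-intron entry of 1191 bases was the largest in this table, held 39.4% in replicate 2 and 38.2% in replicate 1; the kallisto-format table gave 27.0% and 32.6%. The transcripts with a shorter coding part of 477 bases held 0.94% in replicate 2 and 0.90% in replicate 1, against 16.2% and 8.14% in the kallisto-format table. The level of the shorter form was not settled by these files.

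In the other members the longest or sole transcript led in both tables. The longest Penk transcript (1449 bases) held 82.3% of Penk TPM in replicate 2 and 82.4% in replicate 1. The longest Pdyn transcript (2386 bases) held 89.6% of Pdyn TPM in replicate 2 and 89.7% in replicate 1. The longest Adora2a transcript (2596 bases) held 80.0% of Adora2a TPM in replicate 2 and 80.9% in replicate 1, with 96.5% and 96.8% of the reads. The kallisto-format table gave other shares, which for Penk and Adora2a were further apart between the libraries. It gave this Adora2a transcript 68.5% in replicate 2 and 84.3% in replicate 1. The Penk transcript had 79.1% and 88.4% there, and the Pdyn transcript 98.7% and 98.1%, in replicates 2 and 1. Gpr6 and Drd2 have 1 annotated transcript each.

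The D2 receptor is known as a long and a short form that differ by an 87-base exon coding for part of the third intracellular loop. That exon lies at chr9:49403194-49403280 on the plus strand and is part of the sole Drd2 entry, of 2547 bases, so the files do not separate the forms.
Drd2 exon of the long form: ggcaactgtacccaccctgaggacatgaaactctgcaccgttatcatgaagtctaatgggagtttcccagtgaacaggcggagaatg

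**Figure D4:**
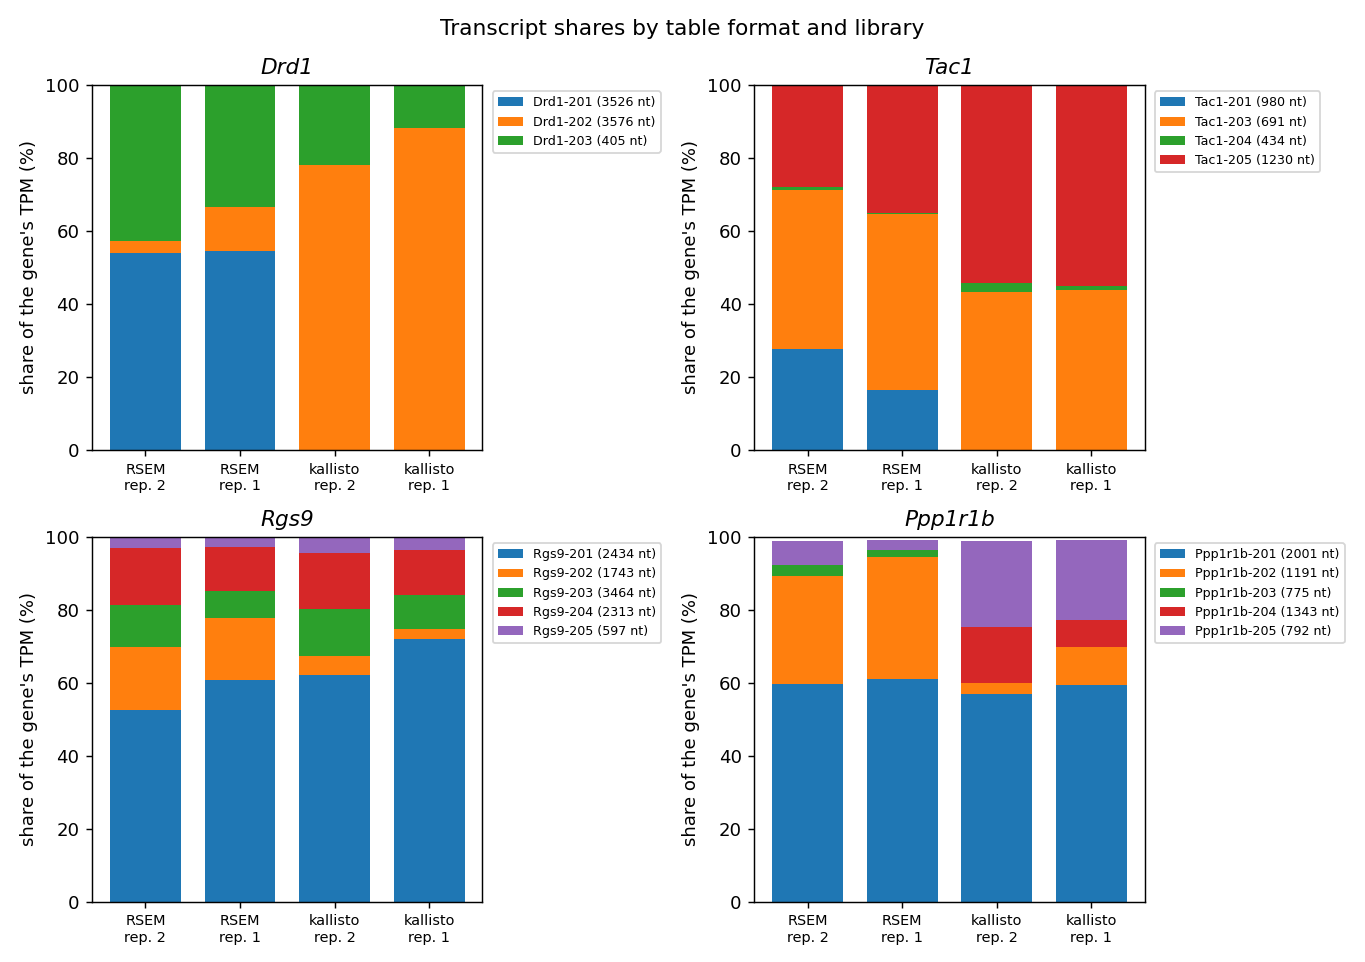
Share of each gene's TPM held by its transcripts (percent, transcripts named with their lengths), for the RSEM-format and the kallisto-format table in replicate 2 and replicate 1. The tables give unlike shares for the Drd1 entries and for the alpha form of Tac1 (980 bases), and closer ones for the Rgs9 transcripts with spliced 3′ exons, between 67.4% and 77.8%.

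Counting could have mixed the members with other genes in few places. Penk overlaps the antisense gene A830012C17Rik, counted with 4 reads (replicate 2) and 3 reads (replicate 1). Ppp1r1b overlaps 1700003D09Rik, which had 0 in each. Of all 50-base stretches in the members' transcripts, none was found in transcripts of another gene, except in Rgs9, where 76 of 6339 (1.20%) were.

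Genes that share the signalling roles of the members were listed and read in the same way. All 16 other striatal genes of both pathways reached 1 TPM in each animal, and their median was 64.3 TPM. They summed to 1064 TPM in replicate 2 and 931 TPM in replicate 1. By the counting rule 5 of 16 were called higher and 0 lower, against 4.35% and 4.44% of all genes tested. The called genes were Scn4b, a sodium channel subunit, with 75.95 TPM in replicate 2 and 60.4 TPM in replicate 1 (log2 ratio 0.20), Rasgrp2 (53.2 and 39.2 TPM; 0.27), Pde10a (83.5 and 68.4 TPM; 0.14), Rasd2 (78.1 and 65.2 TPM; 0.13) and Pde1b (138 and 118 TPM; 0.11). Gnal, the G protein subunit that couples the D1 dopamine and A2a adenosine receptors to adenylyl cyclase, was among the most abundant, at 92.9 TPM in replicate 2 and 90.4 TPM in replicate 1. With total reads or spike-in reads as the scale, 8 and 10 of the 16 were called higher. The 5 called genes had between 1208 reads (Rasgrp2, replicate 1) and 10003 reads (Pde10a, replicate 2). At such depths small ratios pass a rule that covers counting error only. Whether the RNA of the 16 genes came from striatal or cortical cells was not tested.

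Of the 6 other direct pathway genes, the M4 muscarinic receptor gene Chrm4 was called higher, with 29.15 TPM in replicate 2 and 21.1 TPM in replicate 1 (log2 ratio 0.34, interval 0.19 to 0.48). The others in that list were not called, and Sfxn1 had 22.4 TPM in replicate 2 and 20.6 TPM in replicate 1. Ebf1 and Isl1, transcription factors of developing direct pathway neurons, stood at 2.53 and 2.36 TPM in replicate 2, and at 2.57 and 1.78 TPM in replicate 1. The indirect pathway transcription factors Six3 and Sp9 stood at 4.96 and 2.44 TPM in replicate 2, and at 5.31 and 2.35 TPM in replicate 1. Slc35d3 and Eya1, also of the direct pathway list, stood at 2.92 and 4.80 TPM in replicate 2, and at 3.12 and 3.90 TPM in replicate 1. The median of that list was 3.685 TPM. All 9 members lay above these 4 transcription factor genes, and above Slc35d3 and Eya1, in both animals. Chrm4 and Sfxn1 lay above Drd2 and Gpr6 in both.

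Receptors for the members' ligands were mostly low. Among the other dopamine receptor genes, Drd5 stood at 1.18 TPM in replicate 2 and 1.00 TPM in replicate 1, and Drd3 and Drd4 lay below 1 TPM in each. The adenosine receptor gene Adora1 stood at 71.75 TPM in replicate 2 and 65.0 TPM in replicate 1, and Adora2b at 3.37 and 2.69 TPM. Of the receptors that bind enkephalin, Oprd1 stood at 8.99 and 7.06 TPM and Oprm1 at 4.23 and 4.11 TPM in replicates 2 and 1. Oprk1, which binds dynorphin, had 4.70 TPM in replicate 2 and 4.43 TPM in replicate 1, and Tacr1, which binds substance P, 2.60 and 2.33 TPM. Oprl1, the receptor gene for nociceptin, was the most abundant of the opioid and tachykinin receptors, at 26.15 TPM in replicate 2 and 21.3 TPM in replicate 1. None of these receptor genes was called in either direction. The member precursor genes Penk, Pdyn and Tac1 were thus each more abundant than the receptor genes named here for their products. For nociceptin the order was reversed, with its precursor gene Pnoc below Oprl1 in both animals.

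The other opioid and tachykinin precursor genes were rare beside Penk, Tac1 and Pdyn: Tac2 stood at 8.98 TPM in replicate 2 and 8.52 TPM in replicate 1, Pnoc at 4.2 and 4.34 TPM, and Tac4 was at 0 reads in both. The genes for cutting and trimming peptide precursors had a median of 158 TPM over the 6 listed. Cpe, carboxypeptidase E, stood at 914 TPM in replicate 2 and 908 TPM in replicate 1, and was called lower on scaled reads (log2 ratio -0.12). Pcsk1n, which encodes an inhibitor of a prohormone convertase, was also called lower (-0.16), and Pcsk2, a prohormone convertase gene, was called higher (0.07), with 119 TPM in replicate 2 and 103 TPM in replicate 1. Scg5, which encodes a chaperone of that convertase, was not called, at 226 TPM in replicate 2 and 207 TPM in replicate 1. With kallisto-format counts, 2 of the 6 were called in place of 3.

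DARPP-32 is acted on by kinases and phosphatases whose 11 listed genes had a median of 137 TPM. The calcineurin subunit gene Ppp3ca, whose product removes the phosphate that protein kinase A adds to DARPP-32, stood at 393 TPM in replicate 2 and 348 TPM in replicate 1. Prkar1b, a regulatory subunit gene of protein kinase A, stood at 306 TPM in replicate 2 and 277 TPM in replicate 1. Ppp1ca, a catalytic subunit of the phosphatase that DARPP-32 inhibits, was the 1 gene of this list called, lower at a log2 ratio of -0.16. RGS9 works as a complex with a G beta 5 subunit and a membrane anchor. Gnb5 stood at 73.4 TPM in replicate 2 and 70.6 TPM in replicate 1, and the anchor gene Rgs7bp at 62.6 and 55.1 TPM. The relative Rgs11 was called higher, with 21.2 TPM in replicate 2 and 14.75 TPM in replicate 1 (0.47).

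Markers of other cells were read to place the libraries. Cortical excitatory neuron genes were all detected (10 of 10) and summed to 696 TPM in replicate 2 and 627 TPM in replicate 1, with none called; Slc17a7, the main vesicular glutamate transporter gene of cortex, stood at 476 and 423 TPM, Cux2 at 71.5 and 65.5 TPM and Tle4 at 19.7 and 19.75 TPM. Cortical interneuron genes were all detected (10 of 10), summed to 651 TPM in replicate 2 and 619 TPM in replicate 1, and 2 were called lower, Calb2 at -0.87 and Gad2 at -0.11. The most abundant were Gad1, at 177 TPM in replicate 2 and 169 TPM in replicate 1, and Sst, at 159 TPM in each. Gad1 and Gad2 are general genes of GABAergic neurons, striatal projection neurons among them, so the list's sum is not particular to cortical interneurons. Cholinergic interneuron genes, which in the striatum mark a rare cell type, were all detected (5 of 5) but low, at a sum of 9.83 TPM in replicate 2 and 10.3 TPM in replicate 1. Chat, which makes acetylcholine, stood at 2.04 and 2.10 TPM, Slc5a7 at 2.44 and 2.21 TPM and Lhx8 at 2.36 and 2.88 TPM. Of the midbrain dopamine neuron genes, 1 of 5 reached 1 TPM in both animals. They summed to 5.23 TPM in replicate 2 and 4.71 TPM in replicate 1, with Pitx3 at 0 reads in both animals and the dopamine transporter gene Slc6a3 at 5 and 1 reads. Ddc stood at 3.90 TPM in replicate 2 and 3.61 TPM in replicate 1, Th at 1.16 and 0.88 TPM and Slc18a2 at 0.10 and 0.21 TPM. Claustrum genes were all detected (5 of 5), with a median of 17.3 TPM and none called. Ntng2 stood at 34.1 TPM in replicate 2 and 30.5 TPM in replicate 1, Lxn at 19.6 and 19.5 TPM and Nr4a2 at 17.5 and 15.3 TPM. The part of each of these cell types, or of striatal tissue, in the level of the members was not tested.

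**Figure D5:**
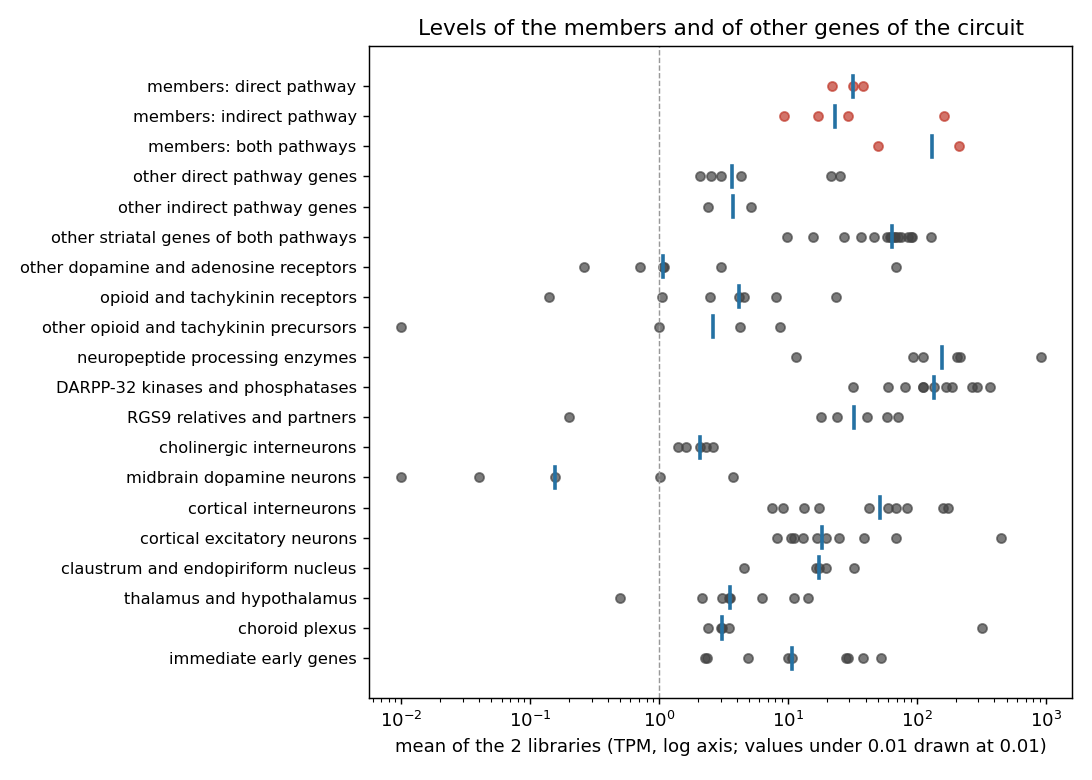
Mean TPM over the 2 libraries of each gene (points, log axis) and the median of each list (bars), with a dashed line at 1 TPM. The members lie between 9.305 and 214 TPM, and the markers of cholinergic interneurons and midbrain dopamine neurons all lie below 4 TPM.

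The genes nearest to Drd1 in level, by Euclidean distance of log2(TPM + 0.1) over the 2 libraries among protein-coding genes, were Strn, Kcnab3 and Traf7, at distances of 0.022, 0.024 and 0.033. Strn had 35.6 TPM in replicate 2 and 28.0 TPM in replicate 1. For Drd2 they were Aamdc, Tarsl2 and Mrps9, at 0.0054, 0.0073 and 0.0097. Over 2 libraries such a distance holds little more than the mean level, and none of these genes is a member or stood in a list.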

How the data were processed

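The 2 tissue samples are taken here as 2 animals. Per the labels, their total RNA was depleted of ribosomal RNA and prepared with a directional kit from 300 ng with ERCC spike-ins. The labels give mm10 for the quantification, and the labels and headers name no quantification tools or settings. Column names are those that RSEM and kallisto write. Gene and transcript tables deposited by the authors hold expected counts and TPM, and transcript shares in percent, in RSEM format. A further transcript table deposited by the authors, in kallisto format, holds estimated counts and TPM and lacked 86 of the genes. Replicate numbers come from the labels; whether the samples differed in handling is not given.

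The 9 members, the other lists and how genes were picked for naming were chosen with earlier results of these data known. Named genes were the members, from each list the 2 most abundant and the 1 with the largest ratio, and for Drd1 and Drd2 the 3 nearest coding genes; further genes of the lists were named after their values were seen. Expected counts were rounded and scaled by TMM effective library sizes (edgeR 4.0.16, R 4.3.3), and genes under 10 reads in both libraries were left out. Ratios are log2 of replicate 2 over replicate 1 with 0.5 reads added, with Clopper-Pearson intervals of the read split. These intervals and the floor of 3 reads cover counting error only. Log2 levels used a pseudocount of 0.1. Only the counting rule was tested on simulated data, with counting error alone and with changes larger than those of Penk and Rgs9. Levels and transcript shares were not tested in this way. Symbols were taken from the kallisto-format table or, for genes absent there, from GENCODE M21. Exons with their mm10 positions and transcript sequences were taken from GENCODE M21. Peptide codons were searched in the GENCODE transcripts, not in RefSeq proteins, which were not used here. Gpr52, from the indirect pathway list, is not analysed here. Alternatives were DESeq2 1.42.0 size factors, total and spike-in reads, other filters and pseudocounts, the kallisto-format table, and reads per kilobase of the longest coding transcript; the last, and the counts of listed genes under other scales, were added after the data were seen. Python 3.11.15 was used for the rest.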

Additional observations from a re-analysis of the deposited data

How the results depend on the processing

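The direct-minus-indirect median gap was 0.015 with means over genes in place of medians, 0.059 in the kallisto-format table and 0.0018 with reads per kilobase of the longest coding transcript, against 0.50 as reported; it was 0.49 with a pseudocount of 1 and 0.41 to 0.60 with either animal left out. Log2 Drd1 over Drd2 was 0.49 in the kallisto-format table and 0.25 with reads per kilobase (0.79 to 0.98 with either animal left out), Tac1 over Penk in that order -1.99 and -2.39 (-2.11 to -2.05), and Pdyn over Penk -3.11 and -2.88 (-2.95 to -2.83). Reads per kilobase used the same reads with another length, and the kallisto-format table apportioned reads anew. TPM over nuclear protein-coding genes alone was higher for all 9 members. Drd1 then averaged 73.0 against 32.0 as reported, and Ppp1r1b 490 against 214. The kallisto-format table moved 3 mean levels by more than their SD: Drd1 to 23.5, Pdyn to 18.6 and Ppp1r1b to 237 TPM. Penk and Rgs9 were the members called under each scaling, filter and count table tried, and spike-in reads added Ppp1r1b at a log2 ratio of 0.12; that scale moved the median of all genes by 0.08 and called 2671 genes in all, against 1713 as reported. Of the 17 other lists, 7 had over 1.5 times as many called genes on the spike-in scale, 5 on total reads and 2 with kallisto-format counts, among them the cortical excitatory genes (0 as reported, 3 on the spike-in scale and 2 on total reads). With kallisto-format counts, the processing enzyme list had 2 called genes against 3, and the thalamus and hypothalamus list 5 against 6. Over the settings, the ratio of Rgs9 ran between 0.16 and 0.26, that of Penk between 0.10 and 0.19, and that of Pdyn between -0.07 and 0.08. No paired analysis was possible because there is 1 group of 2 animals. With 1 library a side, differences as small as those of Penk and Rgs9 would not be called for the members with the fewest reads. For Gpr6, the 95% counting interval of the ratio ran between -0.31 and 0.12.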
